A study of Mus musculus with 33 samples.

Results

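The data described here are the RNA of 15 single germinal vesicle (GV) oocytes of Nlrp5 +/- mice, of 33 oocytes in the series. Of these, 8 were called non-surrounded nucleolus (NSN) and 7 were called surrounded nucleolus (SN) in the study. All came from 3-week-old females on a C57BL6/Babr background, in which 1 copy of Nlrp5 carried a small deletion from 1 line made with CRISPR. Oocytes were freed from the ovary with collagenase, and no sort is named. The methods say that no hormones were given where they describe another way of collection, and do not repeat it for this one. The Nlrp5 +/- females were littermates of the Nlrp5 -/- females, while Nlrp5 +/+ females usually came from the colony that the line started from. Oocyte 61, which is also Nlrp5 +/-, was left out of both stages because its stage was given in conflicting ways. Oocytes are named by the numbers in the sample labels, and the labels do not say which oocytes came from the same mouse.

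A fully grown oocyte is held in the first meiotic prophase. In NSN oocytes the chromatin is spread through the nucleus and transcription is active. As the oocyte matures, the chromatin condenses into a ring around the nucleolus, transcription stops and the SN oocyte lives on mRNA that it has stored. NLRP5, also called MATER, is a protein of the subcortical maternal complex (SCMC), an abundant protein complex of the oocyte cytoplasm that the embryo needs for its first divisions.

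The stage was not read from stained chromatin in these cells. It was called from the levels of 105 genes known to be higher in NSN and 59 genes known to be higher in SN oocytes, in the same RNA that is described here. A difference between the stages therefore describes the groups that this call made. Since no mouse is named, each stage counts as 1 sample, and no p-value or standard error was derived from oocytes. SDs are the spread between oocytes.

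The oocytes held 5039115 to 11148793 counts on genes. NSN oocytes had 17214 ± 453 genes with at least 1 count (SD, n = 8) and SN oocytes 17093 ± 323 (SD, n = 7), and the ranges overlapped. Mitochondrial genes took 0.140% to 0.618% of counts in NSN and 0.243% to 0.420% in SN oocytes. The oocyte genes Gdf9, Zp3 and Zp2 were at mean normalized counts of 51971, 24090 and 39470, so the defining genes of the labelled cell type were abundant. Normalized counts are counts divided by a size factor per oocyte, which is the median over genes of the ratio to the mean oocyte. They say what share of the RNA a gene took, and a loss of all RNA alike would not be seen in them.

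The library labels carry a first index sequence, and it was not independent of stage. Oocytes 37 to 40 shared 1 index and were all SN, and oocytes 62 to 64 shared another and were all NSN. Oocytes 45 and 48 (NSN) shared an index with 46 and 47 (SN). Oocytes 53, 54 and 56 (NSN) shared an index with oocyte 55 (SN). Whether an index stands for a mouse or a plate is not stated. For the oocytes of the first 2 indices stage and index cannot be told apart, so the differences within the other 2 are given beside the pooled ones, of which they are a part.

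Nlrp5 itself was measured first, as a check of the genotype. With 1 set of size factors over all 33 oocytes, its normalized count was lowest at 6651, had a median of 8580 and was highest at 13472 in Nlrp5 +/- NSN oocytes. In Nlrp5 +/- SN oocytes it was lowest at 5062, had a median of 6232 and was highest at 9690. Every one of these 15 values was below the lowest value of its own stage in Nlrp5 +/+ oocytes except those of oocytes 62 and 64, since Nlrp5 +/+ NSN oocytes started at 10691 and SN oocytes at 10114. All 15 were above the Nlrp5 -/- oocytes, where NSN values ended at 2556 and SN values at 2260. No oocyte thus went against its genotype label, though oocytes 62 and 64 lay within the Nlrp5 +/+ range.

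Between the stages of Nlrp5 +/- oocytes, Nlrp5 did not separate. With size factors over the 15 oocytes the NSN mean was 8279 ± 2115 (SD, n = 8) and the SN mean 6478 ± 1562 (SD, n = 7), a difference of -0.35 on the log2 scale. As a share of all counts it was 1217 CPM (counts per 1000000 counts on genes) in NSN (95% Poisson interval 1208 to 1226) and 903 CPM in SN oocytes (895 to 911), intervals that cover counting error only. The ranges overlapped widely. Within the index of oocytes 45 to 48 the difference was -0.59, and within that of 53 to 56 it was 0.18, in the other direction. In Nlrp5 +/+ oocytes the same difference was -0.60.

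The staging score is the mean log2 level of the NSN markers minus that of the SN markers, and it shows how far the call separated the cells. It ranged from -3.14 to -2.40 in NSN and from -5.12 to -3.61 in SN oocytes. The oocytes nearest to the divide were oocyte 54 on the NSN side, at -3.14, and oocyte 39 on the SN side, at -3.61. SN oocytes spread more widely, with an SD of 0.58 against 0.24. Oocyte 55, called SN although the study's own clustering placed it beside NSN oocytes, was at -3.92.

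**Figure D1:**
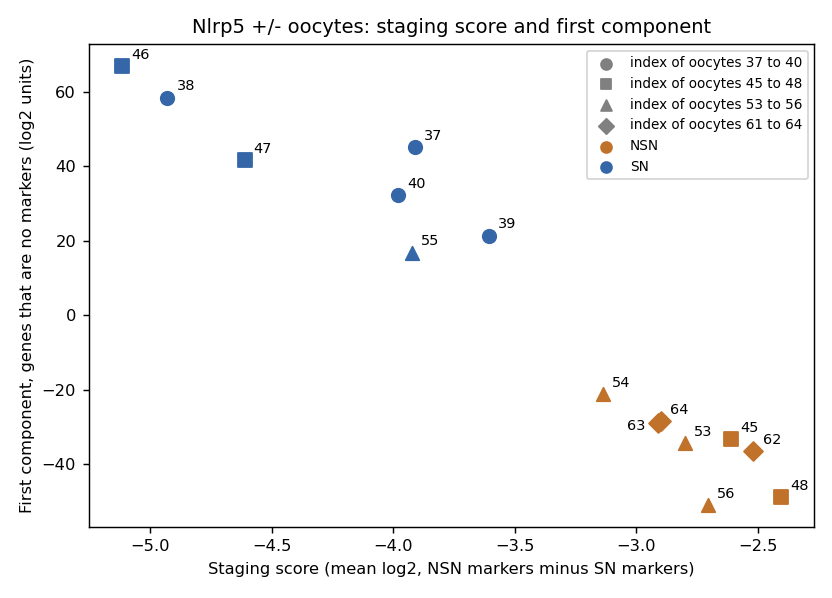
Each point is 1 Nlrp5 +/- oocyte with its number, the x axis is the staging score (mean log2 of the NSN markers minus that of the SN markers) and the y axis the first principal component of 13201 genes that are no staging markers (log2 units), with colours for the stage and shapes for the library index. The 8 NSN oocytes lie between -50.9 and -21.1 on the component and the 7 SN oocytes between 16.8 and 66.9, with oocyte 55 lowest among the SN oocytes.

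Genes that had no part in the call also separated the stages. The first principal component of 13201 such genes held 23.2% of their variance. NSN oocytes had values from -50.9 to -21.1 on it and SN oocytes from 16.8 to 66.9, without overlap. Among SN oocytes, oocytes 46 and 38 were highest, at 66.9 and 58.4, and had the 2 lowest staging scores. Oocytes 55 and 39 were lowest, at 16.8 and 21.4.

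The markers themselves are given as a description, since they chose the stage. Of 102 NSN markers that passed a mean normalized count of 10, 96 were lower in SN oocytes and 60 at least 2-fold, with a median of -1.15. Id3, an inhibitor of helix-loop-helix transcription factors, was at 398 to 664 in NSN and 56.5 to 144 in SN oocytes. Ubtf, which binds ribosomal DNA for RNA polymerase I, was at 137 to 538 in NSN and 21.0 to 108 in SN oocytes. Zfp707, C1d and Simc1 were the other markers with the largest differences among those with a mean of at least 100, at -2.94, -2.85 and -2.21. The 59 SN markers differed less. Of these, 53 were higher in SN oocytes and 0 reached 2-fold, with a median of 0.29. Oosp3, an oocyte-secreted protein gene, had the largest difference, with means of 4236 and 8394 and ranges that overlapped. Nckap5, Ireb2, Ibtk and Tiam1 followed at 0.95, 0.74, 0.64 and 0.63. Of these 5, Ibtk alone had ranges that did not overlap.

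Over all 13362 genes that passed the filter, more were lower than higher in SN oocytes by 2-fold. In SN oocytes 276 genes were at least 2-fold higher, which is 2.07% of genes, and 921 were at least 2-fold lower, which is 6.89%. The 276 held 0 staging markers and the 921 held 60. Most of these genes were low, with median levels of 31.3 and 37.1 normalized counts against 165 for all genes. Among the 8111 genes with a mean of at least 100, 62 were at least 2-fold higher (0.764%) and 178 at least 2-fold lower (2.19%). The median difference of all genes was -0.03. In 110 genes (0.823%) the lowest SN oocyte was above the highest NSN oocyte, and in 187 genes (1.4%) the highest SN oocyte was below the lowest NSN oocyte.

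The 10 genes highest in SN relative to NSN, among genes with a mean of at least 100 that are no markers, were Lmo3, Csmd3, Man1a, Selp, Atrnl1, Nfkbiz, mt-Atp6, Rims1, Rrh and Cntn6. They were selected on this difference, so it carries no test. In 9 of the 10, every SN oocyte was above every NSN oocyte, as in 0.823% of all genes.

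Lmo3, a LIM-domain transcription cofactor on chromosome 6 (138362918 to 138581968, minus strand, GRCm38), was nearly absent from some NSN oocytes. Its normalized count was lowest at 0 (oocyte 48), had a median of 24.4 and was highest at 120 in NSN oocytes. In SN oocytes it was lowest at 210, had a median of 237 and was highest at 462. All SN oocytes were thus above all NSN oocytes, and the means of 40.1 and 276 differed by 2.75 on the log2 scale. Lmo3 took 5.12 CPM in NSN (95% Poisson interval 4.56 to 5.74) and 39.3 in SN oocytes (37.6 to 41.1). The difference was 1.92 within the index of oocytes 53 to 56, and in Nlrp5 +/+ oocytes it was 3.54.

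Csmd3 encodes a very large membrane protein with CUB and sushi domains and spans 1211427 bases of chromosome 15 (47580637 to 48792063). It was at 7.86 to 119 in NSN oocytes, with a median of 64.8, and at 383 to 676 in SN oocytes, with a median of 447. The gap between the stages was wide, and the difference was 2.72 pooled, 3.77 within the index of oocytes 45 to 48 and 2.46 within that of 53 to 56. Man1a, a Golgi mannosidase that trims N-glycans, was at 2.71 to 84.0 in NSN oocytes and at 160 to 264 in SN oocytes, a difference of 2.54. Among its NSN oocytes, oocytes 45, 48 and 56 were at 11.0 or below and oocyte 54 was highest.

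Selp (P-selectin, an adhesion receptor of platelets and endothelium) differed by 2.07, from a mean of 66.6 ± 34.2 (SD, n = 8) to 282 ± 90.1 (SD, n = 7). Oocyte 55 had the lowest SN value, at 140, and within its index the difference was 0.56. Atrnl1 (attractin-like 1) differed by 2.07, and its lowest SN oocyte, oocyte 40 at 75.4, lay just above the highest NSN oocyte at 74.5. Rims1, which organises release sites of synaptic vesicles, differed by 1.80, Rrh, an opsin, by 1.80, and Cntn6 (contactin 6) by 1.76. In all 3 the ranges did not overlap. Nfkbiz, an atypical IκB protein that acts on NF-κB in the nucleus, was at 30.7 to 198 in NSN and at 312 to 595 in SN oocytes. Its difference of 1.87 stood beside 0.42 in Nlrp5 +/+ oocytes, the smallest Nlrp5 +/+ difference among the 10, and the gap between the genotypes was not tested.

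mt-Atp6, a subunit of the mitochondrial ATP synthase encoded in mitochondrial DNA, is the exception among the 10. It was at 5.91 to 194 in NSN and at 11.1 to 402 in SN oocytes, so the ranges overlapped. The pooled difference was 1.83. Oocyte 55 had the lowest SN value, and within its index the difference was -1.67. In Nlrp5 +/+ oocytes it was 2.19 and in Nlrp5 -/- oocytes, of which only 2 were SN, -4.17. Reads of mitochondrial genes can also match nuclear copies of mitochondrial DNA, so this value is uncertain.

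**Figure D2:**
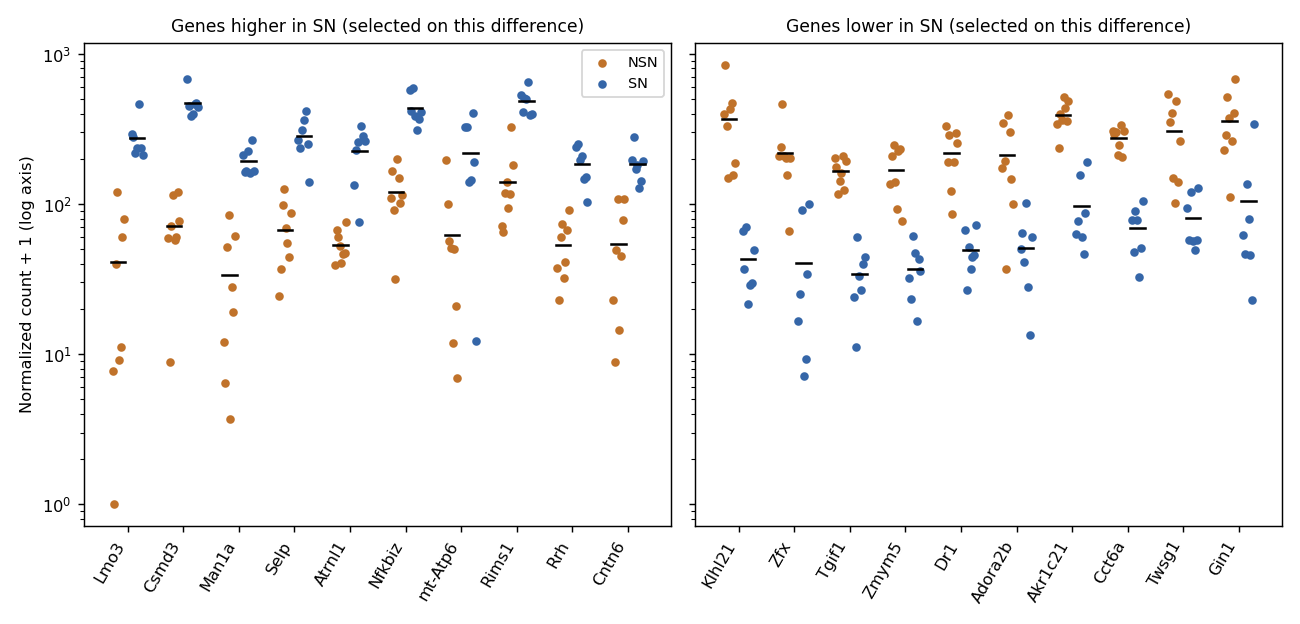
Normalized count plus 1 on a log axis for the 10 named genes in each direction, with 1 point for each of the 8 NSN and 7 SN Nlrp5 +/- oocytes and a bar at the mean of each stage. The stages do not overlap in 9 of the 10 genes higher in SN and in 6 of the 10 genes lower in SN, and the lone low SN point of mt-Atp6 is oocyte 55.

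The 10 genes lowest in SN relative to NSN, by the same rule, were Klhl21, Zfx, Tgif1, Zmym5, Dr1, Adora2b, Akr1c21, Cct6a, Twsg1 and Gin1. In 6 of the 10, every SN oocyte was below every NSN oocyte, as in 1.4% of all genes. These 10 were selected on the difference as well.

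Klhl21, a substrate adaptor of a CUL3 ubiquitin ligase that acts in cell division, lies on chromosome 4 (152008803 to 152017680, plus strand). It was lowest at 149, had a median of 364 and was highest at 847 in NSN oocytes. In SN oocytes it was lowest at 20.6, had a median of 35.9 and was highest at 69.2. Every SN oocyte was below every NSN oocyte, and the difference was -3.10 pooled, -4.43 within the index of oocytes 45 to 48 and -2.59 within that of 53 to 56. It took 61.1 CPM in NSN (59.2 to 63.2) and 5.77 in SN oocytes (5.13 to 6.47). In Nlrp5 +/+ oocytes the difference was -3.65.

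Zfx, an X-linked zinc finger transcription factor, was at 65.4 to 466 in NSN and at 6.19 to 99.0 in SN oocytes. Only oocyte 63 of the NSN oocytes lay within the SN range, and oocytes 55 and 39 were the highest SN oocytes. Tgif1, a homeobox repressor in TGF-beta signalling, was at 115 to 206 in NSN and 10.1 to 59.4 in SN oocytes, a difference of -2.28 with no overlap. Zmym5, an MYM-type zinc finger protein, differed by -2.19. Dr1, the NC2 beta subunit that binds TBP and holds back RNA polymerase II, differed by -2.15, with 85.4 to 330 in NSN and 25.8 to 71.8 in SN oocytes. Cct6a, a subunit of the chaperonin that folds actin and tubulin, was at 205 to 336 in NSN and 31.5 to 104 in SN oocytes, a difference of -2.002. Neither Zmym5, Dr1 nor Cct6a had ranges that overlapped.

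Akr1c21, an aldo-keto reductase that acts on steroids, differed by -2.005 without overlap, but belongs to a family of similar genes whose reads may be shared. The adenosine receptor gene Adora2b (-2.05), the BMP-binding gene Twsg1 (-1.93) and Gin1 (-1.77), which resembles a retroviral integrase, had ranges that overlapped. Gin1 rested on the other SN oocytes. Oocyte 55 had 340 normalized counts of it against at most 134 in the other 6 SN oocytes, and the difference was 0.06 within its index and -2.45 without it.

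Promoters of the leading genes are shown for both directions, from RefSeq on GRCm38.p6, as 250 bases before to 50 bases after the annotated start. Csmd3 had no entry, so Man1a follows Lmo3. Capitals mark exact matches on either strand, which did not overlap each other, to the TATA box TATAAA, the CAAT box CCAAT, the GC box GGGCGG, the E-box CACGTG, the cAMP response element TGACGTCA, the ETS factor motif CCGGAAG and the NOBOX motif TAATTG.
Lmo3 (chr6:138581919-138582218, minus strand): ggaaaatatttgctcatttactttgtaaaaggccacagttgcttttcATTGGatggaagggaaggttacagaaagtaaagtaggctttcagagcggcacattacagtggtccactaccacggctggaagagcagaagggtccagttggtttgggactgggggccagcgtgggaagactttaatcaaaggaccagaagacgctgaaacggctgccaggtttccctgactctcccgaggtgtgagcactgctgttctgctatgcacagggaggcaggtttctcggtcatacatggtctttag
Man1a (chr10:54075688-54075987, minus strand): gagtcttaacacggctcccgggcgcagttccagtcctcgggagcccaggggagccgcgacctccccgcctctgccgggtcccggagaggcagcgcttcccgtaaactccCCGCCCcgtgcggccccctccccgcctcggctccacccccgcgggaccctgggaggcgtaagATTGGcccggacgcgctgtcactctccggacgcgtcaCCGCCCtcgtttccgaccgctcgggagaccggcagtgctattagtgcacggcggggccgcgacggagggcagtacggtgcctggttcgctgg
Klhl21 (chr4:152008641-152008940, plus strand): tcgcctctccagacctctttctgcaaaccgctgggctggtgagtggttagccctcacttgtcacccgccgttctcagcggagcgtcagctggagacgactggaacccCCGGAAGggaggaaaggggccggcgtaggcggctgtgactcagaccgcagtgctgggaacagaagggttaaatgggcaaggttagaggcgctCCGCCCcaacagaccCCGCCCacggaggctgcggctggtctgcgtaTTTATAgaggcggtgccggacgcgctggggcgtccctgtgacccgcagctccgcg
Zfx (chrX:94123718-94124017, minus strand): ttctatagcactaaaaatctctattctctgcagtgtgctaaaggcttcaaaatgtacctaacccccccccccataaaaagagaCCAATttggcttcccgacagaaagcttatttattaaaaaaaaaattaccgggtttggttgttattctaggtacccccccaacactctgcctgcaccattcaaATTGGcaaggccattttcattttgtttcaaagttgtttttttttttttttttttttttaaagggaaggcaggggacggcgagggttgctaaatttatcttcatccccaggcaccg
The 4 windows differ widely in base composition. The Lmo3 window has 7 CpG dinucleotides and a GC content of 50%, and the Zfx window 5 and 40%. The Man1a window has 38 CpG and 72.7% GC, and the Klhl21 window 26 and 65.3%. The Lmo3, Man1a and Zfx windows hold CCAAT, as do 38.6% of 20565 promoters of the same length. The Man1a and Klhl21 windows hold GGGCGG, as do 43.0% of promoters. Klhl21 alone of the 4 holds TATAAA (13.3% of promoters) and CCGGAAG (11.0%). None of the 4 holds the E-box (7.79% of promoters), the cAMP response element (2.25%) or the NOBOX motif (7.26%). A match describes the letters and is not a bound site. No motif was shared by the 2 genes of a direction and missing from both genes of the other. The Man1a window lies 872 bases from the gene start in the count table, so it belongs to another annotated start.

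The difference between the stages in Nlrp5 +/- oocytes was set beside that in 4 NSN and 6 SN Nlrp5 +/+ oocytes, which share no oocyte with it but were staged with the same markers. Over 13098 genes that are no markers and passed the filter in both, Pearson's r was 0.71 and Spearman's rho 0.60 across genes. Genes are not independent replicates, and no p-value is given. Of 272 genes at least 2-fold higher in SN Nlrp5 +/- oocytes, 258 (94.9%) had the same direction in Nlrp5 +/+ oocytes, against 53.1% of all these genes. Of 822 that were at least 2-fold lower, 784 (95.4%) did so, against 46.9%. Of the named genes, all 10 higher and all 10 lower ones had the same direction in Nlrp5 +/+ oocytes. In the 6 staged Nlrp5 -/- oocytes, 9 of the 10 and 10 of the 10 did, but only 2 of these oocytes were SN and 4 were NSN.

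In Nlrp5 +/+ oocytes more genes passed 2-fold. There 612 of 14007 genes (4.37%) were at least 2-fold higher in SN and 1290 (9.21%) at least 2-fold lower. The 168 genes that were at least 2-fold higher in both had median differences of 1.38 in Nlrp5 +/- and 1.75 in Nlrp5 +/+ oocytes. The 548 genes at least 2-fold lower in both had medians of -1.43 and -1.78. Among the 13098 genes that are no markers and passed in both, these 168 were 61.8% of the 272 higher genes of Nlrp5 +/- and 35.3% of the 476 higher genes of Nlrp5 +/+ oocytes. The 548 were 66.7% of the 822 and 50.6% of the 1084 lower genes of that set. Nlrp5 +/+ NSN oocytes number only 4, and a difference between the genotypes was not tested.

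**Figure D3:**
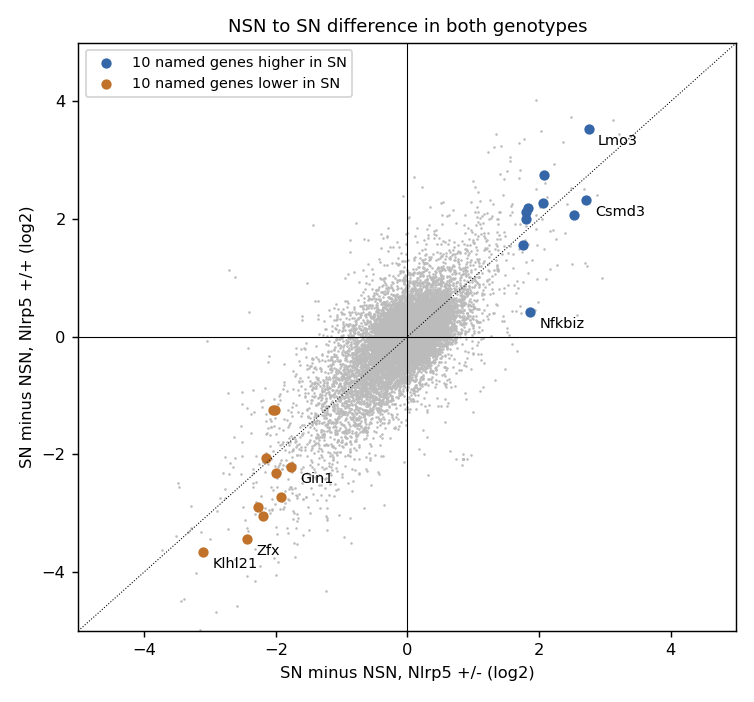
Each grey point is 1 of 13098 genes that are no staging markers, with its SN minus NSN difference (log2) in Nlrp5 +/- oocytes on the x axis and in Nlrp5 +/+ oocytes on the y axis, and the dotted line marks equal differences. All 20 named genes lie in the quadrants where both genotypes have the same direction, and Nfkbiz lies farthest below the line among the genes higher in SN.

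Within the index of oocytes 45 to 48, 98.2% of the 276 higher genes and 97.3% of the 921 lower genes kept their direction, against 48.7% and 51.3% of all genes with that direction. For oocytes 53 to 56 the shares were 85.1% and 88.4%, against 47.3% and 52.7%. The medians were 1.91 and -1.90 in the first and 1.18 and -1.02 in the second. These oocytes are among the 15 that chose the genes, so high shares follow in part from the choice. The lone SN oocyte of the second index is oocyte 55.

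All 8 genes of the SCMC were well above the filter. Of these, 0 were 2-fold higher or lower, against 2.07% and 6.89% of all genes, and the median was 0.04. Padi6, an enzyme-like protein of the cytoplasmic lattices, had means of 52037 and 52162, a difference of 0.00. Tle6 differed by 0.08, and by -0.25 and -0.79 within the indices of oocytes 45 to 48 and 53 to 56. Ooep differed by -0.32, and by 0.12 and -0.86 within them. Nlrp4f had the highest difference, at 0.39, and Khdc3 (FILIA) the lowest, at -0.39. In every one of the 8 the ranges overlapped, as in most genes.

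Oocyte identity genes had a median of -0.14 over 14 genes, of which 1 was at least 2-fold lower (7.14%, against 6.89% of all genes) and 0 higher. Zp2 and Zp3, coat proteins of the zona pellucida, differed by -0.42 and -0.32, and Bmp15, a growth factor that the oocyte secretes, by 0.29. The lower one was Ddx4, the germ cell helicase known as VASA. It was at 413 to 1121 in NSN and 110 to 573 in SN oocytes, a difference of -1.39, with -2.39 within the index of oocytes 45 to 48, -0.31 within that of 53 to 56 and -1.71 in Nlrp5 +/+ oocytes.

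Oocyte transcription factors did not share a direction, with 7 of 14 above and 7 below 0. Foxo3, which holds follicles in reserve, was at 961 to 1829 in NSN and 2398 to 3927 in SN oocytes, a difference of 0.94 with no overlap. Nobox, a homeobox activator of oocyte genes, was at 3440 to 5103 in NSN and 2164 to 3282 in SN oocytes, a difference of -0.51 with no overlap. Gtf2a1l, a TFIIA-like factor of germ cells, differed by -0.79 without overlap. Tbpl2 (TBP2), the oocyte form of the TATA-binding protein, was at 166 to 459 in NSN and 80.1 to 186 in SN oocytes, a difference of -1.45. For Tbpl2 only oocyte 55 of the SN oocytes reached the NSN range. Figla, Taf4b and Yy1 had differences of -0.78, -0.76 and -1.09 with overlap. Yy1 was at -1.67 without oocyte 55 and -0.87 without oocyte 53, and Taf4b was at 0.01 within the index of oocytes 53 to 56.

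Of 58 genes of the general machinery of RNA polymerase II, 3 were at least 2-fold lower (5.17%, against 6.89% of all genes) and 0 higher, and the median was 0.07. Those 3 were Tbpl2, Cdk9, the kinase of elongation factor P-TEFb, at -1.03, and Polr2h, a subunit shared by the polymerases, at -1.41. Cdk9 was at -0.89 without oocyte 56. Gtf2a1, the ubiquitous TFIIA subunit, had the highest difference, at 0.99, with 329 to 1530 in NSN and 1126 to 1957 in SN oocytes.

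Of 72 genes of RNA polymerase I and the nucleolus, 8 were at least 2-fold lower (11.1%, against 6.89% of all genes) and 0 higher, and the median was -0.07. The nucleolus is where ribosomal RNA is made and gives the stages their names. Among these 8, Ubtf and Nop2 are staging markers. Taf1c, a subunit of the promoter factor SL1, differed by -1.86, Rrs1 by -1.93, Nop16 by -1.87, Twistnb, a polymerase I subunit, by -1.23, Bop1 by -1.05 and Polr1c by -1.0005. Nop16 was without overlap and all 8 were below 0 within both indices. Of the 60 members with a mean of at least 100, 4 were at least 2-fold lower, where 2.19% of all genes were. Bop1 was at -0.88 without oocyte 48 and Polr1c at -0.80 without oocyte 56. Splicing factors had a median of 0.15 over 54 genes. Of these, 0 were at least 2-fold higher or lower, against 2.07% and 6.89% of all genes. Srsf4 was highest at 0.85 and Srsf7 lowest at -0.88.

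Ribosomal protein genes and genes of oxidative phosphorylation were near the median of all genes, and the 2 indices pointed in opposite directions. The ribosomal list had a median of -0.05 over 82 genes, of 0.78 within the index of oocytes 45 to 48 and of -0.31 within that of 53 to 56. The nuclear OXPHOS list had -0.11 over 80 genes, 0.52 and -0.25. Uqcrc1, a complex III core protein and a staging marker, was lowest at -2.07. Proteasome genes behaved alike, with a median of -0.02 pooled, 0.29 and -0.37. Psmd13, a lid subunit, was lowest at -1.39.

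Of 13 mitochondrially encoded genes, 4 were at least 2-fold higher in SN oocytes (30.8%, against 2.07% of all genes). They were mt-Atp6, mt-Co2 (1.80), mt-Co3 (1.73) and mt-Atp8 (1.03), which neighbour each other on the mitochondrial genome. These 4 had low counts, with means from 20.6 to 135, while the abundant mt-Co1, mt-Nd1 and mt-Cytb differed by -0.40, -0.59 and 0.24. Within the index of oocytes 53 to 56, mt-Atp6, mt-Co2 and mt-Atp8 were lower in SN oocytes, at -1.67, -1.79 and -3.31. Without oocyte 46 mt-Co3 was at 0.86, and without oocyte 38 mt-Atp8 was at 0.77.

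**Figure D4:**
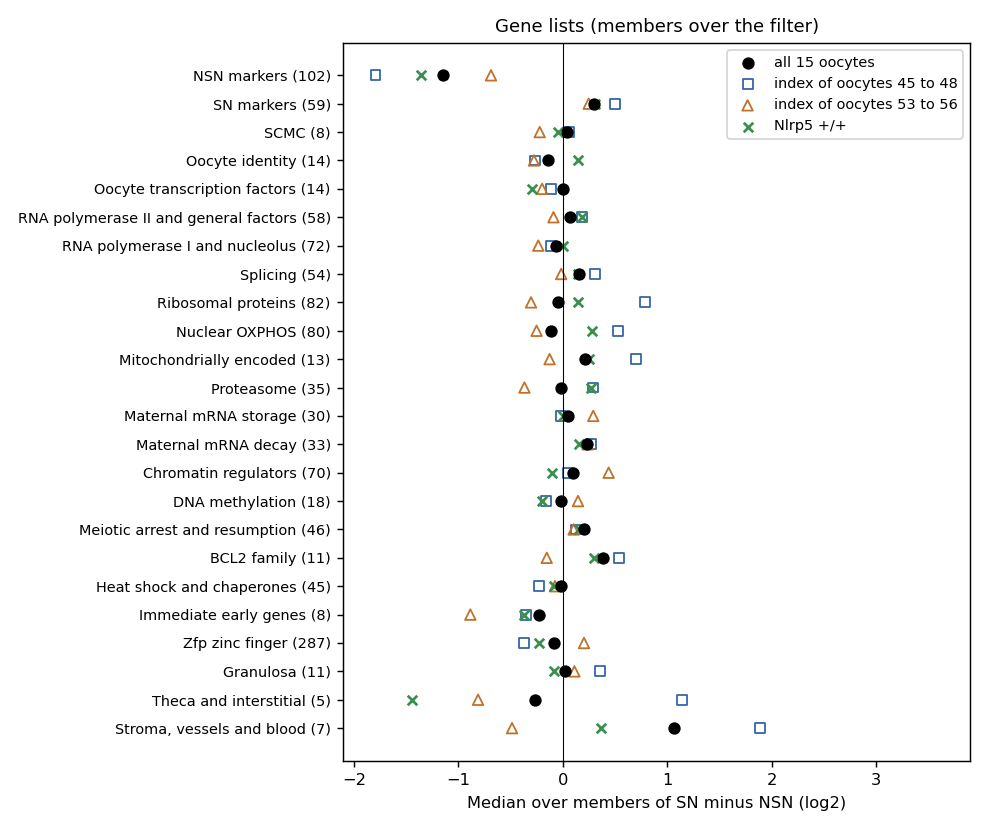
For each gene list, with the number of members that passed the filter in brackets, the median of the SN minus NSN difference (log2) is shown for all 15 Nlrp5 +/- oocytes (filled circles), within each of 2 library indices (open symbols) and in Nlrp5 +/+ oocytes (crosses). The filled circles lie between -0.27 and 0.39 apart from the NSN markers at -1.15 and the stroma, vessel and blood list at 1.06, and the open symbols lie on both sides of 0 for several lists.

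Genes that store maternal mRNA had a median of 0.05 over 30 genes. Patl2, a repressor bound to stored mRNA and a staging marker, was at 777 to 1445 in NSN and 312 to 472 in SN oocytes, a difference of -1.38. Ddx6, a helicase of the same particles, differed by -1.36 with overlap, and by 0.24 within the index of oocytes 53 to 56. Lsm14a, a partner of Ddx6, went the other way at 0.59. Cpeb1, which controls polyadenylation in the cytoplasm, differed by 0.29.

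Genes of mRNA decay had a median of 0.23 over 33 genes. Cnot7, a catalytic deadenylase of the CCR4-NOT complex, was at 683 to 3093 in NSN and 2432 to 5426 in SN oocytes, a difference of 1.08, and it was above 1 within both indices (1.10 and 1.30) and in Nlrp5 +/+ oocytes (1.02). In Nlrp5 -/- oocytes, of which only 2 were SN, it was -0.29, and without oocyte 56 the pooled difference was 0.96. Btg4, which brings that complex to maternal mRNA, differed by 0.23, and by -0.19 within the index of oocytes 53 to 56. Cnot6l, a related deadenylase and a staging marker, differed by 0.23, and by -0.05 without oocyte 55. That oocyte had 4757 normalized counts of Cnot6l against 1556 to 2122 in the other 6 SN oocytes. Lsm1, of the ring that binds the ends of deadenylated mRNA and a staging marker, was at 1084 to 1595 in NSN and 292 to 804 in SN oocytes, a difference of -1.54.

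Of 70 chromatin regulators, 2 were at least 2-fold higher (2.86%, against 2.07% of all genes) and 3 at least 2-fold lower (4.29%, against 6.89%). Top2a, the topoisomerase that untangles DNA as chromosomes condense, was at 186 to 368 in NSN and 472 to 624 in SN oocytes. It differed by 1.01 with no overlap, by 0.85 and 1.25 within the indices and by 0.50 in Nlrp5 +/+ oocytes. Ncapd2, of the condensin complex, differed by 1.05 at a mean of 49.0. Leaving out oocyte 56 gave 0.95 for Top2a, and leaving out oocyte 63 gave 0.89 for Ncapd2. Ehmt2 (G9a), a histone H3 lysine 9 methyltransferase and a staging marker, was at 7.17 to 49.0 in NSN and 0 to 6.19 in SN oocytes. Kdm5a differed by -1.24 pooled, by -1.96 without oocyte 55 and by 0.74 within the index of oocytes 53 to 56. Sirt1, a deacetylase, had the lowest difference among the members with a mean of at least 100, at -0.91. It was -1.50 without oocyte 55, -0.57 without oocyte 53 and 0.46 within the index of oocytes 53 to 56.

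Genes of DNA methylation had a median of -0.02 over 18 genes, and the ranges of the main ones overlapped. Dnmt1 differed by 0.08, Dnmt3a by 0.06, Dnmt3l by 0.36 and Uhrf1 by 0.28. Dnmt1 and Dnmt3a were below 0 within both indices. Uhrf2 was the lone member at least 2-fold lower (5.56%, against 6.89% of all genes), at -1.38 and a low mean. At least 2-fold higher were 0, against 2.07% of all genes.

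Of 46 genes of meiotic arrest and resumption, 3 were at least 2-fold lower (6.52%, against 6.89% of all genes) and 0 higher, and the median was 0.20. Adcy1, an adenylyl cyclase, and Ccne1 are staging markers, at -1.81 and -1.36. The adenylyl cyclase genes Adcy3 and Adcy9 differed by 0.20 and 0.0014. Wee1, a kinase that inhibits CDK1, was at 195 to 637 in NSN and 88.0 to 396 in SN oocytes. Its difference was -1.20, with -2.57 and 0.21 within the indices. The kinase genes Wee2 and Pkmyt1 went the other way, at 0.45 and 0.21. Ccnb3, a cyclin needed to leave meiosis I, was at 88.3 to 450 in NSN and 330 to 788 in SN oocytes, a difference of 0.96.

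Of 287 Zfp zinc finger genes, a family with many repressors of transposable elements, 45 were at least 2-fold lower in SN oocytes (15.7%, against 6.89% of all genes) and 3 at least 2-fold higher (1.05%, against 2.07%). Staging markers made up 5 of the 287, and without them 41 were at least 2-fold lower. The list is low, with a median level of 116 normalized counts. Of its 148 members with a mean of at least 100, 4 were at least 2-fold lower and 1 higher. Of all genes with such a mean, 2.19% and 0.764% were. Members under a mean of 100 were not set beside genes of like level. Whether level accounts for the larger share over the whole list was not tested. The median of the list was -0.09 pooled, -0.37 within the index of oocytes 45 to 48 and 0.20 within that of 53 to 56. Zfp563 was the highest of the abundant members at 1.06, or 0.94 without oocyte 39.

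Genes past 2-fold in SN oocytes differed in genomic span, the distance from start to end of the gene in the count table. The 276 higher genes had a median span of 40.7 kb and the 921 lower genes one of 15.7 kb, against 24.3 kb for all genes. Of the higher genes 29.7% spanned more than 100 kb, against 7.93% of the lower and 14.3% of all genes. Among genes with a mean of at least 100 the medians were 34.9, 17.6 and 27.2 kb. Of the named genes, 6 of the 10 higher ones and 0 of the 10 lower ones spanned more than 100 kb.

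Across all genes the relation to span was small and was not the same in every set of oocytes. In 10 bins of genes by span, the median difference in all 15 oocytes went from -0.14 in the bin of the shortest genes to 0.14 in that of the longest, which also held the most genes at least 2-fold higher (5.31%). For the index of oocytes 53 to 56 it went from -0.33 to 0.36. For that of 45 to 48 it was 0.07 in the shortest, -0.13 in the fifth and 0.20 in the longest bin. In Nlrp5 +/+ oocytes it was 0.10 in the shortest and 0.05 in the longest bin, and lowest, at -0.05, in the ninth.

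**Figure D5:**
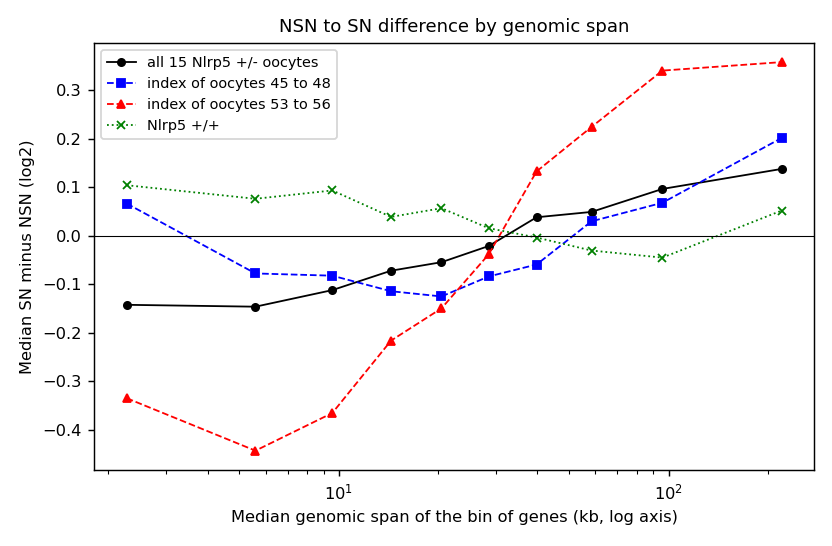
The x axis is the median genomic span (kb, log axis) of each of 10 bins of the 13362 genes and the y axis the median SN minus NSN difference (log2) of that bin, with lines for all 15 Nlrp5 +/- oocytes, for each of 2 library indices and for Nlrp5 +/+ oocytes. The line for all oocytes goes from -0.14 to 0.14, the line for oocytes 53 to 56 is the steepest, and the Nlrp5 +/+ line shows no such rise.

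Most markers of other ovarian cells were low in all 15 oocytes, and some were higher in SN oocytes. Exceptions were Serpine2, at 1405 to 2085 normalized counts in every oocyte, Cyp19a1, Nr5a2, Slc18a2 and the endothelial gene Pecam1, with means of 379, 239.8, 176 and 443 against a median of 165 for all genes. The summed granulosa list took 349 to 480 CPM in NSN and 346 to 452 in SN oocytes, most of it from Serpine2, Cyp19a1, Nr5a2 and Slc18a2. Of 20 granulosa genes 11 passed the filter, of which 2 were at least 2-fold higher and 2 at least 2-fold lower (18.2% each, against 2.07% and 6.89% of all genes). The list's median was 0.02. The 4 were Inha (1.60), with means of 12.2 in NSN and 38.99 in SN oocytes, Ptgs2 (1.33), Fshr (-1.36) and Gatm (-2.18). Fshr was at -0.16 without oocyte 56 and Gatm at -0.997 without oocyte 63. Ptgs2 was at 0 to 15.8 normalized counts in NSN and 2.78 to 35.9 in SN oocytes. Gatm was at 0 to 104 in NSN and 0 to 14.4 in SN oocytes. Such low genes can pass the filter, a mean over both stages, through the stage where they are high. How far this raised the 2 shares of 18.2% was not tested. Foxl2 and Amh had means under 4 in both stages. Theca and interstitial genes took 10.9 to 58.9 CPM in NSN and 8.93 to 30.98 in SN oocytes.

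Of 13 genes of stroma, vessels and blood, 7 passed the filter. In SN oocytes 5 of these were at least 2-fold higher (71.4%, against 2.07% of all genes), at low levels. The 7 had a median level of 19.6 normalized counts, against 165 for all genes. The filter is a mean over both stages, so low genes can pass it through the stage where they are high. Pecam1, the abundant member, differed by 0.12, and by -0.46 within the index of oocytes 45 to 48. The summed list took 62.8 to 92.7 CPM in NSN and 68.9 to 115 in SN oocytes. The haemoglobin gene Hbb-bs was at 0 to 19.0 in NSN and 0 to 113 in SN oocytes, with oocytes 40, 46 and 47 highest. Col1a2, Col3a1, Kdr and Acta2 had differences of 1.09, 1.06, 1.03 and 1.13. Each fell under 1 without a single oocyte, to 0.78 (oocyte 47), 0.88 (62), 0.63 (39) and 0.78 (47), and Col1a2 was at 1.74 without oocyte 63. The list's median was 1.06 pooled, 1.89 within the index of oocytes 45 to 48, -0.49 within that of 53 to 56 and 0.36 in Nlrp5 +/+ oocytes. The part of RNA from other cells in the differences between the stages was not tested.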

How the data were processed

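Polyadenylated RNA of single GV oocytes was sequenced. Per the labels and methods, the authors trimmed reads with Trim Galore and aligned them with HISAT2. They deposited raw read counts per gene, without normalization, after leaving out libraries under 4000000 reads. The counter's strand setting is not given in the sources used here. Coordinates are GRCm38, as in the deposited table, although the methods name GRCm39. A second deposited table gives the count of reads per library. Tables of the authors' own fold changes and p-values were not used. Of 35373 entries, 52 repeats of a gene were dropped.

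Genotype came from the labels, and stage from the study's stage bar. Counts were divided by median-of-ratios size factors and averaged over oocytes with equal weight. A difference is log2(SN mean + 1) minus log2(NSN mean + 1), which understates low genes, for genes averaging 10 normalized counts or more. Genes were named by size of difference among non-markers with a mean of at least 100, a symbol that is not a predicted one and medians that also differed 2-fold, 10 in each direction. The 5 largest markers of each class and the extremes of each list were added, and other list members named in the text were chosen after their values were seen. Members, lists and rules were chosen with earlier results of these data known. The script that computes differences was checked on simulated counts with known changes, and the stage difference itself has no test. Of the genes that passed the filter, 74.5% had a promoter entry, so base composition and motifs were not compared between gene sets, a check that would be void. Depth, 5039115 to 11148793 counts, gave Poisson intervals that cover counting error only. Alternatives used other scalings (total count, TMM of edgeR 4.0.16), medians, means of log2 values, a pseudocount of 5, other filters, left-out oocytes and single indices. Scripts ran in R 4.3.3 and Python 3.11.15 with pandas 2.3.3, numpy 2.4.6, matplotlib 3.10.9 and scipy 1.17.1.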

Additional observations from a re-analysis of the deposited data

Results flagged for a closer look

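Among 150 groups of 7 or 8 oocytes checked, 13 (8.67%) had 1 oocyte far from the others. This was judged by its gap to the nearest other oocyte as a share of the range. For independent groups chance alone would give about 1 in 20. These groups reuse the same 15 oocytes and some hold genes selected on their difference, so that rate does not apply here. The values are log2(normalized count + 1) unless stated. SN oocyte 55 stood apart in 5 genes. It was low for mt-Atp6 (3.60, others 7.13 to 8.65), Srsf4 (8.26, others 8.80 to 9.21) and the survival gene Bcl2l1 (8.58, others 9.52 to 9.97). It was high for Bmp15 (15.23, others 14.56 to 14.83) and Tbpl2 (7.54, others 6.34 to 6.80).

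NSN oocyte 56, the shallowest of the 15, stood apart in 3 genes. It was high for Khdc3 (13.66, others 12.76 to 13.11) and low for Foxo3 (9.91, others 10.45 to 10.84) and Lsm14a (9.496, others 10.43 to 10.99).

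SN oocyte 46 was high for Lmo3 (8.85, others 7.72 to 8.19). For Csmd3, NSN oocyte 48 was low (3.15, others 5.86 to 6.91) and SN oocyte 37 high (9.40, others 8.58 to 8.88). NSN oocyte 54 was low for Nfkbiz (4.99, others 6.50 to 7.64), and its summed theca and interstitial genes took 58.9 CPM against 10.9 to 20.5 in the other 7 NSN oocytes.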

How the results depend on the processing

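No paired analysis was possible because the labels give no replicate number shared by oocytes of both stages. The library index that 8 of the 15 oocytes share across stages was used for the differences within an index. Of 744 values of the comparisons under alternatives, 683 moved by less than the spread between oocytes (for counts, by at most 1.5 times), and of 1584 values of single named genes, 1527 did. Fewer oocytes and other filters changed the counts most. At least 2-fold higher and lower in SN were 1173 and 1923 genes within the index of oocytes 45 to 48 and 906 and 1735 within that of 53 to 56, 1098 and 2219 with no filter, and 62 and 178 with a filter of at least 100. Leaving out 1 oocyte gave 264 to 331 and 873 to 1095.

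Within the index of oocytes 45 to 48, filtered on those oocytes, list medians were -1.75 for NSN markers, 0.49 for SN markers, -0.27 for oocyte identity, 0.18 for RNA polymerase II, 0.31 for splicing, 0.78 for ribosomal proteins, 0.52 for nuclear OXPHOS, 0.29 for the proteasome, -0.16 for DNA methylation, -0.23 for chaperones, -0.38 for Zfp genes and 1.14 for theca genes. Within that of 53 to 56 they were -0.70 for NSN markers, -0.22 for the SCMC, -0.28 for oocyte identity, -0.19 for oocyte transcription factors, -0.090 for RNA polymerase II, -0.24 for RNA polymerase I, -0.017 for splicing, -0.37 for the proteasome, 0.29 for mRNA storage, 0.46 for chromatin regulators, 0.14 for DNA methylation, 0.074 for the BCL2 family, -0.89 for immediate early genes and 0.21 for Zfp genes, and Nlrp5 was at 0.18. Of 67 named genes 59 kept their direction there. Those that turned were mt-Atp6 (-1.67), Gin1 (0.061), Sirt1 (0.46), Sdha (-0.34), Bcl2l1 (-0.15), Rps29 (-0.13), Dusp1 (-0.70) and Nlrp5. Within the index of oocytes 45 to 48, 62 did, and Sdha (-0.57), Pecam1 (-0.46), Dnmt3b (-0.17), Bax (0.83) and Dusp1 (-0.00044) turned. With no filter, medians were -0.26 for oocyte transcription factors and 0.012 for the BCL2 family. With a filter of at least 100 they were 0.16 for DNA methylation and 0.45 for immediate early genes. Scaling by total counts gave 0.10 for splicing. Counting oocyte 61 as SN gave 0.45 for granulosa and 0.98 for theca genes, and as NSN -1.13 for theca genes.

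Leaving out 1 oocyte gave 0.037 to 0.15 for RNA polymerase II and 0.11 to 0.21 for splicing, both highest without oocyte 56, and -0.74 to 0.50 for theca genes, highest without oocyte 54. Medians near 0 also turned sign for the SCMC (-0.029 without oocyte 40), ribosomal proteins (0.11), nuclear OXPHOS (0.0085), the proteasome (0.11) and DNA methylation (0.078, these 4 without oocyte 56), oocyte transcription factors (0.072) and granulosa genes (-0.16, both without 55), mRNA storage (-0.0042) and immediate early genes (0.050, both without 37) and chaperones (0.011 without 64). Pearson's r with Nlrp5 +/+ oocytes was 0.48 with no filter, 0.68 with a filter of at least 100, 0.73 with means of log2 values, 0.68 with oocyte 61 as NSN and 0.68 to 0.74 with 1 oocyte left out. The share of 2-fold genes that kept their direction was 98.8% within the index of oocytes 45 to 48 and 89.6% within that of 53 to 56 with a filter of at least 100, and 82.8% in the latter with means of log2 values. The cause of these changes was not tested.

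Stage was called on this RNA, mice are not named and stage and index are partly confounded, so none of the differences has a replicate check. Counts are relative, so a loss of RNA common to all genes is not visible, and the index of oocytes 53 to 56 has 1 SN oocyte. The difference in genes detected was -121. It was -0.43 without oocyte 48, -215 without oocyte 47 and 143 with oocyte 61 as NSN.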

Other observations

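Chaperones, survival genes and immediate early genes were measured as well. Of 45 heat shock and chaperone genes, 4 were at least 2-fold lower in SN oocytes (8.89%, against 6.89% of all genes) and 0 higher, with a median of -0.02. Cct4, like Cct6a a subunit of the chaperonin that folds actin and tubulin, was at 831 to 1887 in NSN and 201 to 839 in SN oocytes, a difference of -1.29, with -1.95 and -0.49 within the indices of oocytes 45 to 48 and 53 to 56 and -1.67 in Nlrp5 +/+ oocytes. Hsf2, a heat shock transcription factor, differed by -1.26 and Fkbp4, a staging marker, by -1.30. Dnajb4 had the highest difference, at 0.85.

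Of 11 genes of the BCL2 family, which decide between cell survival and death, 1 was at least 2-fold higher and 1 at least 2-fold lower (9.09% each, against 2.07% and 6.89% of all genes), with a median of 0.39. The higher one was Bok, at 1.03, or 0.85 without oocyte 46, and the lower one Mcl1. Bcl2l10, the most abundant member and a staging marker, had means of 12081 and 15785. Mcl1, also a staging marker, differed by -1.28, by -1.93 without oocyte 55 and by 0.33 within the index of oocytes 53 to 56. Bcl2l1 differed by 0.55, and by -0.15 within the index of oocytes 53 to 56. Of 23 immediate early genes 8 passed the filter, with a median of -0.23, of 0.05 without oocyte 37 and of 0.08 without the staging marker Dusp2. Ier2 (-2.15) and Dusp2 (-1.995, a staging marker) were at least 2-fold lower (25.0%, against 6.89% of all genes), and Egr1 was higher by 0.83, with 0.27 and 0.10 within the indices.

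Oocyte 61, which entered neither stage, had a staging score of -3.50, between the 2 stages. It had 14838 genes with at least 1 count, against 16663 to 18057 in the other 15 oocytes, at 5757879 counts. Its theca and interstitial genes took 209 CPM, against 8.93 to 58.9 in the others.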
